A study of Homo sapiens with 2 samples.

Results

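The genes described here are 42 human genes that encode the autophagy machinery, its LC3 and GABARAP proteins, its cargo receptors and a pair of regulators. A member was measured through the array probes whose RefSeq transcript belongs to it in the gene table of GRCh38.p14, and it was represented by its brightest probe. Of the 42 members, 41 were measured, among 23752 genes and unnamed transcripts in all. The exception was NBR1, a ubiquitin-binding receptor, because the gene table used here lists none of the array's transcripts under its name, which says nothing of whether the array holds a probe for it.

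The study profiled HepG2 cells, an established human hepatoma line. There was 1 array of cells given the solvent dimethyl sulfoxide (DMSO, 1‰) and 1 array of cells given hawk tea extract (HTE), both for 24 h. Hawk tea is made from the leaves of Litsea coreana. For the HTE dose the sample labels give 200 μg/mL, whereas the published text gives 300 μg/mL and a name attached to the HTE array carries the same number. Both groups were grown in the same high-glucose medium with serum, and the cells of both are 1 tumour line with no normal hepatocytes beside it. With 1 array per condition there is no replicate and no test between conditions, and array and treatment cannot be told apart.

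Autophagy encloses part of the cytoplasm in a double membrane and delivers it to the lysosome. A kinase complex starts the process, a lipid kinase complex marks the membrane, lipid transfer proteins and conjugation enzymes extend it, and LC3 and GABARAP proteins become attached to it. Receptors then hold cargo such as ubiquitinated proteins or mitochondria against these proteins, and some of the receptors are broken down with the cargo. In the liver the pathway is known for supplying nutrients during fasting and for clearing damaged mitochondria and lipid droplets. An array measures the RNA of these genes and gives no measure of how much autophagy took place.

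Levels are given as the log2 of the processed signal relative to the 75th percentile of the same array, so that 0 stands for that percentile, and a log2 ratio is the level on the HTE array minus that on the DMSO array. Of 58717 spots outside the controls, 60.6% with DMSO and 56.6% with HTE were well above background, and none was saturated. The hepatocyte markers fitted the label, since all 12 of them were well above background on both arrays, with log2 ratios between -0.36 (FGB) and 0.44 (AMBP). Of 10 markers of blood, endothelial, stromal, muscle and glial cells, 8 passed the background limit with DMSO and 7 with HTE. The summed signal of this list was 2.52 times the 75th percentile with DMSO and 2.14 times with HTE. That of the hepatocyte list was 233.8 times with DMSO and 259.8 times with HTE, and the sums of the lists come from different probes and are not compared. CD14 (log2 ratio of -1.77) and PECAM1 (-1.82) were lower on the HTE array, CD3E and GFAP did not pass it with either, and the part of these markers in the results was not tested. The cells of both arrays are the same tumour line, so these markers are not read as counts of other cell types.

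Of the 41 measured members, 5 were at least 2-fold higher after HTE, against 5.25% of all genes, and none was at least 2-fold lower, against 3.03% of all genes. The 5 genes, in falling order of the log2 ratio, were TP53INP2, OPTN, BNIP3L, GABARAPL1 and SQSTM1, which are receptors, a GABARAP protein and a regulator that binds LC3. As a share the 5 genes are 12.2% of the members, beside 4.93% of all named genes and 4.29% of genes measured above background on each array, and counting both directions 8.29% of all genes were past 2-fold. At a 1.5-fold cutoff 9 members were higher and 1 was lower, against 12.4% and 10.5% of all genes. MAP1LC3A, not well above background on the HTE array, entered these counts at a bound. In all, 32 members had a log2 ratio above 0, compared with 45.7% of all genes and 49.5% of those measured above background on each array. A median log2 ratio of 0.22 was found for the members and of 0.0 for all genes. The median depends on the scaling of the arrays, as it was 0.05 without scaling, with 23 members above 0, and -1.12 with scaling to the spike-in RNA, when the median of all genes was -1.33. With spike-in scaling only 3 members (TP53INP2, OPTN and BNIP3L) were above 0, so each direction given below is relative to the 75th percentile of the array. Unscaled ratios had a median of -0.16 over all genes, and 9 members then had the other sign.

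**Figure D1:**
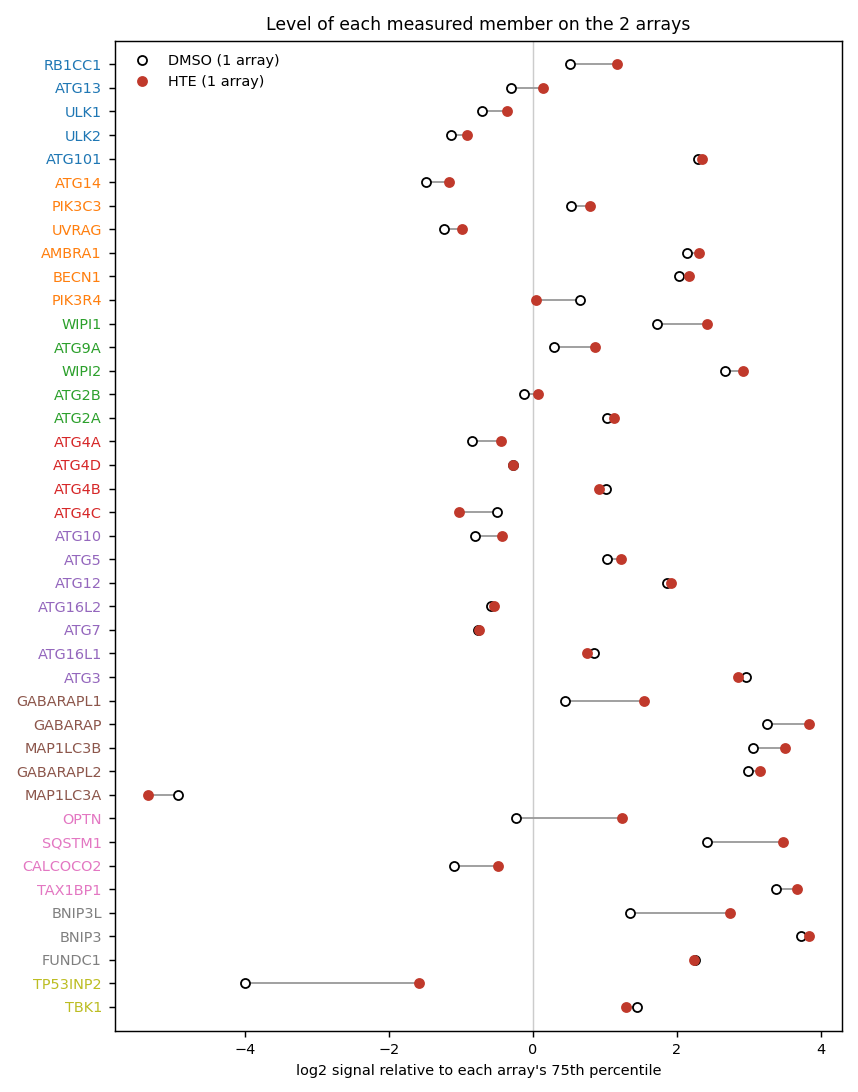
Each row is 1 of the 41 measured members, ordered and coloured by its role, and the x axis is the log2 signal relative to the 75th percentile of each array (open circles, DMSO, filled circles, HTE, 1 array each). The longest gap is that of TP53INP2, from -4.00 to -1.59, many conjugation enzymes have circles that overlap, the HTE point of MAP1LC3A is not well above background, and levels of different genes come from different probes and are not compared.

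The error of a single ratio is technical only. The scanner software attaches an error to each spot, which amounts to 10.0% of a bright signal, and this gives an error of 0.20 for the log2 ratio of most members (from 0.20 to 0.43). By this measure 21 members were higher by more than their error, 2 were lower by more than their error (PIK3R4 and ATG4C), and 18 lay within it. The share of all genes past their own error was not computed, so these counts have no background beside them. For scale, 28.5% of all genes had a higher ratio than ULK2 (0.22), a member just above its error. The median SD among replicate spots of a probe was 0.051 over 688 probes, and that among different probes of a gene was 0.16 over 3759 genes. A pair of members had replicate spots. The 10 spots of ATG4D, one of the ATG4 proteases, gave a mean log2 ratio of -0.0021 ± 0.052 (SD), and the 8 usable spots of ATG5, part of the conjugation machinery, gave 0.22 ± 0.029 (SD). The counts above take ATG5 at 0.20, from the spots usable on each array separately, which is within its error. The spread between cultures is not contained in any of these errors.

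**Figure D2:**
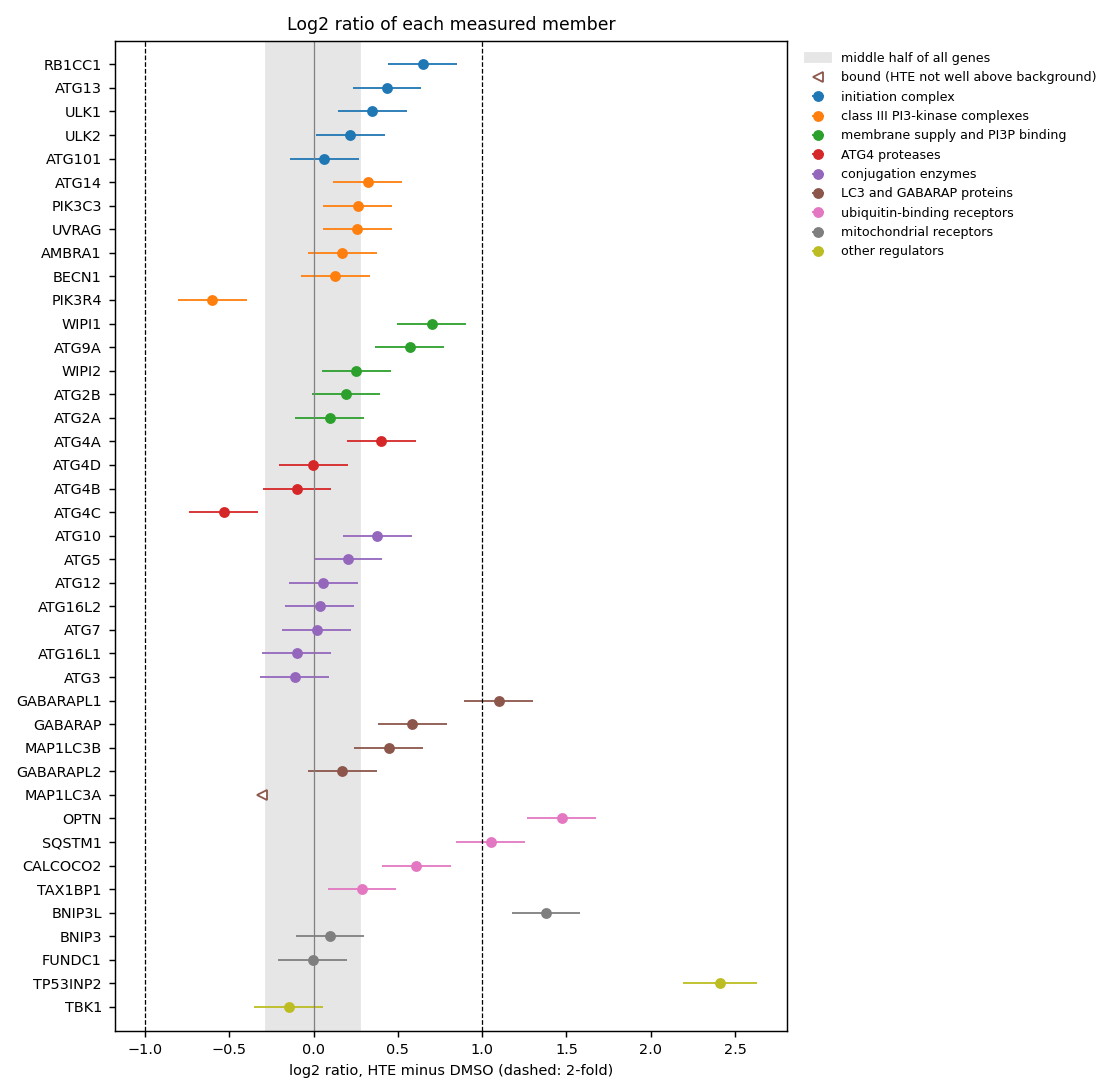
Each point is the log2 ratio of 1 member (HTE minus DMSO, 1 array each), the bars are the error given by the scanner software, the grey band runs from the lower to the upper quartile of all genes (-0.28 to 0.27) and the dashed lines mark 2-fold. The 5 members right of the upper dashed line are TP53INP2, OPTN, BNIP3L, GABARAPL1 and SQSTM1, no member lies left of the lower one, and the open triangle is the bound of MAP1LC3A.

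The receptors that bind ubiquitin were higher after HTE in all 4 measured cases, 2 of them at least 2-fold, with a median log2 ratio of 0.83. Of all genes, 45.7% had a log2 ratio above 0 and 5.25% were at least 2-fold higher. OPTN, a receptor for damaged mitochondria and intracellular bacteria, had a level of -0.23 on the DMSO array and 1.24 on the HTE array. This is a log2 ratio of 1.47 ± 0.20 (error of the scanner software), or 2.78-fold, and 2.13% of all genes had a higher ratio. SQSTM1, which gathers ubiquitinated proteins into bodies and binds KEAP1, had a level of 2.42 on the DMSO array and 3.47 on the HTE array, a log2 ratio of 1.05 ± 0.20 (2.07-fold). It lay so close to the cutoff that it fell below it with normexp background correction (0.97), with scaling to the median (0.97) and without scaling (0.88). CALCOCO2, a receptor for bacteria and mitochondria, had levels of -1.10 and -0.49 on the DMSO and HTE arrays, a log2 ratio of 0.61. TAX1BP1, a receptor for protein aggregates, had levels of 3.38 and 3.66, a log2 ratio of 0.29, little above its error.

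The 3 mitochondrial receptors had a median log2 ratio of 0.098 and were not alike. BNIP3L, a protein of the outer mitochondrial membrane that binds LC3 and is known for the removal of mitochondria from maturing red cells, had a level of 1.36 on the DMSO array and 2.73 on the HTE array. Its log2 ratio was 1.38 ± 0.20 (2.60-fold) at the brightest probe and 0.93 at the other probe (1.91-fold), so that only the former passed 2-fold. Spots within 10 rows and columns of the brightest probe had a median log2 ratio of 0.20, and with this subtracted the gene was still past 2-fold. BNIP3, its close relative and a well-known hypoxia target, had levels of 3.73 and 3.83, a log2 ratio of 0.098 that lies within the error. FUNDC1, the other receptor of the outer mitochondrial membrane, had a level of 2.25 on the DMSO array and 2.24 on the HTE array.

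TP53INP2, a nuclear protein that moves to forming autophagosomes and binds LC3 and GABARAP proteins, had the largest ratio of the members. Its level was -4.00 on the DMSO array and -1.59 on the HTE array, a processed signal of 252.1 against 1189. The log2 ratio was 2.41 ± 0.22 (5.31-fold), and 0.446% of all genes had a higher one. It was the only member past 3-fold and the only one past 2-fold with spike-in scaling. The ratio of this dim gene was 2.01 with normexp background correction, and it had no second probe. TBK1, a kinase that phosphorylates OPTN and other receptors, had levels of 1.44 and 1.29, a log2 ratio of -0.15 that is within the error. With normexp background correction the ratio of TBK1 was 0.17. Spots around its probe had a median log2 ratio of 0.18, and with this subtracted it was -0.33, past its error.

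Of the 5 LC3 and GABARAP proteins, which are the ubiquitin-like proteins attached to the membrane, 4 were higher on the HTE array and 1 was lower. Their median log2 ratio was 0.44, and 45.7% of all genes were above 0. GABARAPL1 had a level of 0.45 on the DMSO array and 1.54 on the HTE array at its brightest probe, a log2 ratio of 1.10 ± 0.20 (2.14-fold). Its second probe went from -0.77 to 1.08, a log2 ratio of 1.85 (3.60-fold). Both probes of GABARAPL1 were thus past 2-fold, although they differ from each other by more than the error. GABARAP had levels of 3.25 and 3.84, a log2 ratio of 0.59 (1.5-fold). MAP1LC3B, whose product is the usual laboratory marker of autophagosomes, had levels of 3.05 and 3.50 at its brightest probe, a log2 ratio of 0.44. At its second probe the levels were -0.57 and 0.62, and the log2 ratio was 1.19 (2.29-fold), so that the call of MAP1LC3B depended on the probe. GABARAPL2 had levels of 2.99 and 3.16, a log2 ratio of 0.17, and of -0.00082 without scaling. MAP1LC3A was dim, with a level of -4.93 on the DMSO array, and it did not reach the background limit with HTE, where it was at least 1.23-fold lower, a bound within its error of 0.43. MAP1LC3B has a near-identical copy, MAP1LC3B2, and GABARAPL1 a closely related pseudogene. The probe sequences were not used here, so signal shared with these copies cannot be separated.

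The kinase complex that starts autophagy had 5 of 5 genes above 0, beside 45.7% of all genes. Its median log2 ratio was 0.35, with none at 2-fold. RB1CC1, the scaffold of the complex, had the largest ratio, with a level of 0.52 on the DMSO array and 1.16 on the HTE array (0.65 ± 0.20, 1.57-fold). ATG13, the subunit that links the scaffold to the kinase, had levels of -0.30 and 0.14, a log2 ratio of 0.44, and its second probe gave 0.77. The kinases themselves differed less between the arrays. ULK1 had levels of -0.71 and -0.36 (log2 ratio of 0.35), and ULK2 had levels of -1.13 and -0.91 (0.22), with a second probe of opposite sign (-0.12). ATG101, which stabilises ATG13, had levels of 2.29 and 2.36 and a log2 ratio of 0.064, within its error. Without scaling its log2 ratio was -0.11.

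In the class III PI3-kinase complexes, which make the lipid PI3P on the membrane, 5 of 6 genes were above 0, beside 45.7% of all genes. The catalytic and the regulatory subunit lay on opposite sides. PIK3C3, the catalytic subunit, had levels of 0.53 and 0.80, a log2 ratio of 0.26 ± 0.20. PIK3R4, the regulatory subunit that PIK3C3 is bound to, had a level of 0.65 on the DMSO array and 0.049 on the HTE array. Its log2 ratio of -0.60 ± 0.20 (1.52-fold lower) was the lowest of the members well above background on both arrays. It was the only one of these past 1.5-fold in this direction, and MAP1LC3A has only a bound. ATG14, which directs the complex to forming autophagosomes, had a log2 ratio of 0.32, and UVRAG, which takes its place in the complex on endosomes, had 0.26. BECN1, the core subunit shared by both complexes, had levels of 2.04 and 2.17 (0.13), and AMBRA1, a protein that binds BECN1, had levels of 2.14 and 2.31 (0.17). Both of these lie within the error, although the dim second probe of AMBRA1 (-5.60 with DMSO) gave 0.82 ± 0.38. Without scaling BECN1 had a log2 ratio of -0.042 and AMBRA1 of -0.00079.

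The 5 genes of membrane supply and PI3P binding were all above 0, beside 45.7% of all genes, with a median log2 ratio of 0.25. WIPI1, a protein that binds PI3P on the growing membrane, was highest, with levels of 1.72 on the DMSO array and 2.42 on the HTE array (0.70 ± 0.20, 1.62-fold). ATG9A, a membrane protein of the vesicles that seed the structure, had levels of 0.29 and 0.86 (0.57) at its brightest probe, and its second probe, dim at -5.50 on the DMSO array, gave 1.23. WIPI2, which recruits ATG16L1, had a log2 ratio of 0.25 and 0.53 at its second probe. The lipid transfer proteins ATG2A and ATG2B had log2 ratios of 0.096 and 0.19, within the error. Without scaling these ratios were -0.076 and 0.021. Spots around the brightest probe of ATG2A had a median log2 ratio of 0.25, and its second probe gave 0.90. With normexp background correction the brightest probe of ATG2A gave 0.47.

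The enzymes that attach LC3 and GABARAP proteins to the membrane were the most even of the larger groups. In the 7 conjugation enzymes the log2 ratio ran from -0.11 to 0.38, with a median of 0.037 and none at 1.5-fold at its brightest probe. ATG7, the enzyme that activates both ubiquitin-like proteins, had levels of -0.76 and -0.75 at its brightest probe (0.017), and its second probe gave 0.59, which is past 1.5-fold. ATG3, the enzyme that transfers LC3 to lipid, had levels of 2.96 and 2.84 (-0.11), and ATG10, the enzyme that transfers ATG12 to ATG5, had levels of -0.81 and -0.43 (0.38). ATG12 had a log2 ratio of 0.058, ATG16L1, which positions the conjugate on the membrane, had -0.10 (-0.38 at its second probe), and ATG16L2, its relative, had 0.037. ATG5 had levels of 1.03 and 1.23 (0.20), at its error, and its 8 spots usable on both arrays gave 0.22. With ATG5 taken at 0.20, ATG10 alone of these 7 genes differed by more than its error at the brightest probe. At the second probe ATG7 and ATG16L1 did so too.

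The ATG4 proteases, which cut LC3 and GABARAP proteins before conjugation and release them from the membrane, had log2 ratios on both sides of 0. ATG4C had a level of -0.50 on the DMSO array and -1.03 on the HTE array at its brightest probe (-0.53 ± 0.20, 1.45-fold lower), and its other probes gave -0.24 and 0.085. ATG4A had levels of -0.84 and -0.44 (0.40). ATG4B, the main protease of the family in most cells, had levels of 1.02 and 0.92 (-0.098), with 0.11 at its second probe, and ATG4D had -0.27 and -0.28. Only ATG4C and ATG4A thus lay outside their error, in opposite directions.

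The roles can be set side by side. Across the 27 genes that initiate, supply and conjugate the membrane, none was at least 2-fold higher at its brightest probe (5.25% of all genes were), and 2 were past 1.5-fold higher and 1 lower (12.4% and 10.5% of all genes). Across the other 14 measured genes, which are the LC3 and GABARAP proteins, the receptors and the regulators, 5 were at least 2-fold higher and 7 at least 1.5-fold higher, beside the same shares of all genes. The median log2 ratio was 0.19 in the former and 0.52 in the latter. This division was made after the values had been seen and carries no test. It also rests on the brightest probes. Among the 27 genes the second probe of ATG9A was past 2-fold higher (1.23). Those of ATG2A (0.90), AMBRA1 (0.82), ATG13 (0.77) and ATG7 (0.59) were past 1.5-fold higher. The lowest second probe of the 27 genes was that of ATG16L1 (-0.38), and the second probes of ATG9A and AMBRA1 are dim.

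Of the measured members, 16 had several usable probes. In 4 of them (ULK2, ATG12, ATG4B and ATG4C) the probes lay on both sides of 0. The second brightest probe had the higher ratio in 10 of the 16, and the median was 0.21 over the brightest and 0.56 over the second probes. With the second probe used wherever there was one, ATG9A and MAP1LC3B were past 2-fold and BNIP3L was not, which gave 6 members in all. The others of the 5 genes were past 2-fold in either case, although of these GABARAPL1 alone had a second probe.

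**Figure D3:**
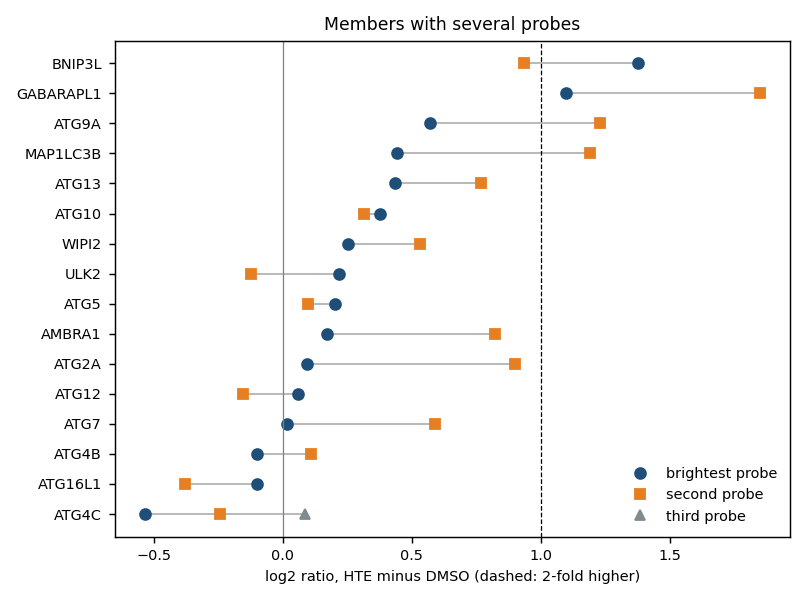
Each row is 1 of the 16 members with several probes, and each point is the log2 ratio of 1 probe (HTE minus DMSO, circles the brightest, squares the second and a triangle the third). The widest gaps are those of ATG2A (0.096 and 0.90), GABARAPL1 (1.10 and 1.85) and MAP1LC3B (0.44 and 1.19).

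Promoters of the members were searched, and the stretches that held a motif are shown whatever the ratio of the member. Sites outside the window given next were not searched. The RefSeq table (GRCh38.p14), with 250 bases before to 50 after each start, held 46 promoters of 37 members. Letters were searched on both strands. CACGTG, the core of the site of TFEB and its relatives, was in 4 of the 46 promoters (8.70%), and in 7.26% of all 35116 promoters. TGACNNNGC, the core of the NRF2 site, was in 3 of the 46 (6.52%), and in 13.3% of all. TTNCATCA, part of the composite site of ATF4, was in none of the 46, and in 3.62% of all. Of the 10 members at least 1.5-fold apart, 8 had a promoter in the table, and among these CALCOCO2 alone held one of the motifs. The stretches are written 5′ to 3′ on the strand of the gene with the matched letters in capitals.
ATG3 (chr3:112561964-112561991, minus strand, log2 ratio of -0.11): ctttctcacgtCACGTGccgggagagtc
ATG3, second match (chr3:112561941-112561968, minus strand): gagtctagtgtCACGTGaggccccggtg
BNIP3 (chr10:131982041-131982068, minus strand, log2 ratio of 0.098): cgcacgcgccgCACGTGccacacgcacc
TBK1 (chr12:64452078-64452105, plus strand, log2 ratio of -0.15): cggccgtcggtCACGTGgcctccggcca
ATG14 (chr14:55411835-55411862, minus strand, log2 ratio of 0.32): aaacaaaatccCACGTGactggctctcc
ATG101 (chr12:52069849-52069876, plus strand, log2 ratio of 0.064): gtgcttctgTGACTACGCggatgttgtg
MAP1LC3B (chr16:87392281-87392308, plus strand, log2 ratio of 0.44): cgagtcaccTGACCAGGCtgcgggctga
CALCOCO2, match on the other strand (chr17:48830897-48830924, plus strand, log2 ratio of 0.61): gctcctgggGCCCGGTCAcctgaacact
The members that held CACGTG had log2 ratios between -0.15 and 0.32, and a match is a description of letters and not a shown binding site.

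Further genes of the pathway were taken as 5 lists. Signalling upstream of autophagy by nutrients and energy had 19 of 25 measured genes above 0 and a median log2 ratio of 0.27, and 2 genes were at least 2-fold higher. SESN2, which restrains the mTORC1 kinase when leucine is scarce, had levels of 0.053 on the DMSO array and 1.65 on the HTE array, a log2 ratio of 1.59 (3.02-fold). FLCN, a partner of the Rag GTPases on the lysosome, had levels of -1.45 and -0.36 (1.08), and 1.17 at its second probe. DDIT4, another inhibitor of mTORC1, had a log2 ratio of 0.93, and the Rag GTPases RRAGD and RRAGC had 0.87 and 0.82. The lowest of this list was SESN1 (-0.36), and SESN3 passed the background limit on neither array. DDIT4, RRAGD and RRAGC were chosen for mention after their values were seen, as were TFEB, CCPG1, STBD1 and PINK1 below.

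Among the 8 transcription factors of autophagy genes, 4 were above 0 and 4 below, with a median of -0.0051. FOXO1, a factor held out of the nucleus by insulin signalling, was the only one at least 2-fold apart, with levels of -0.25 on the DMSO array and -1.33 on the HTE array (-1.08). TFE3 had the highest ratio at the brightest probe (0.54), and its second probe, with a DMSO level of 0.36 beside 0.39, gave -0.34. TFEB, the best known activator of autophagy and lysosomal genes, gave 0.15 with the brightest of its probes and -0.73 with the second. The DMSO levels of these probes were far apart, at 5.17 and 1.26. Neither TFE3 nor TFEB thus has a settled direction here.

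In the list of maturation and fusion with the lysosome, 11 of 15 genes were above 0 with a median of 0.13, and PLEKHM1, an adaptor between LC3 and the fusion machinery, was the only one past 2-fold. Its levels were -0.069 and 1.10 (1.17), and its other probes gave 0.60 and 0.69. The lowest was STX17 (-0.21), the fusion protein of the autophagosome. Of 14 measured further autophagy factors, 7 were above 0 and the median was -0.0071. WDR45, a relative of the WIPI proteins, was highest (1.31, 2.49-fold), and USP10, a deubiquitinase, was lowest with -0.76 and -0.81 at its second probe. Of 16 measured further receptors, 11 were above 0 with a median of 0.25. CALCOCO1, a receptor for the endoplasmic reticulum and Golgi, was at the cutoff (1.00, 2.01-fold) from a dim level of -5.29, with an error of 0.32. CCPG1, a receptor for the endoplasmic reticulum, had a log2 ratio of 0.99, STBD1, which binds glycogen, had 0.92, PINK1, the kinase that marks damaged mitochondria, had 0.70, and KEAP1, which SQSTM1 binds, was lowest (-0.20). In these lists 8.0%, 0.0%, 6.67%, 7.14% and 6.25% of the measured genes were at least 2-fold higher, in the order given, against 5.25% of all genes. The counts above 0 in these lists stand beside 45.7% of all genes.

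**Figure D4:**
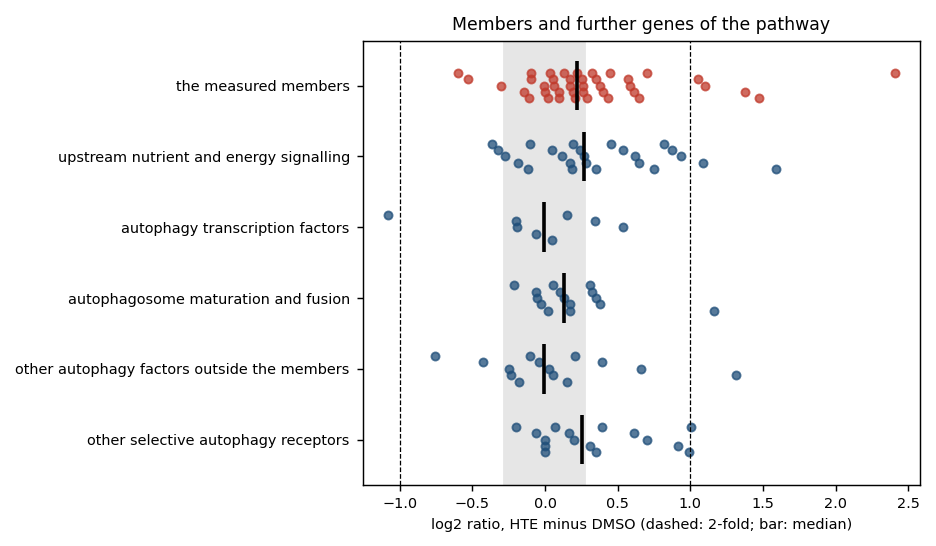
Each point is the log2 ratio of 1 gene (HTE minus DMSO, 1 array each), rows are the measured members and the 5 further lists, thick bars are the medians, the grey band runs from the lower to the upper quartile of all genes (-0.28 to 0.27) and dashed lines mark 2-fold. The median is 0.22 for the members, 0.27 for upstream signalling and near 0 for the transcription factors and the further autophagy factors.

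Scaling shifts the genes measured on both arrays together, so that calls lost under another scaling follow from the distance to the cutoff. Without scaling OPTN, BNIP3L and TP53INP2 were past 2-fold (log2 ratios of 1.30, 1.21 and 2.24) and GABARAPL1 (0.93) and SQSTM1 (0.88) were not, against 3.72% of all genes.

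**Figure D5:**
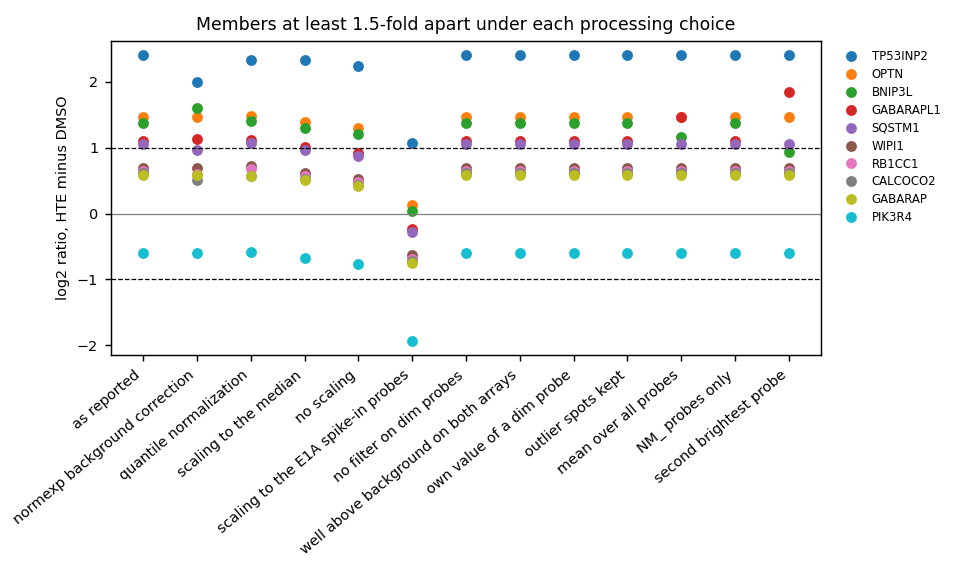
The y axis is the log2 ratio (HTE minus DMSO) of the 10 members at least 1.5-fold apart, the x axis is the processing choice, and dashed lines mark 2-fold. TP53INP2 is above the upper line in every column, and spike-in scaling lowers all 10 genes.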

How the data were processed

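The authors deposited the Agilent Feature Extraction output (version 11.5.1.1 in the file header, 10.7 in the submitters' processing notes) of 2 one-colour arrays. The values used were the deposited intensity of each spot, background-subtracted and detrended by that software and not scaled between arrays. Control and outlier spots were left out, log2 was taken, and the 75th percentile of each array was subtracted. After averaging replicate spots, probes were retained if a share of 0.5 or more of their spots exceeded background on 1 or both arrays. Where 1 array was below that, the ratio is a bound against the lowest signal well above background there, or the probe's own signal if higher. RefSeq accessions matched 28174 of 50599 probes to genes, and the brightest probe stood for a gene. A 2-fold cutoff was used, as in the study, with no test. All members are named, and of each further list the extremes and all genes past 2-fold, with the others said to be chosen later. The members and lists were chosen with earlier results of these data known. The steps were tested on simulated data, in which 200 of 200 shifted genes (log2 shift of 1.5) were recovered among 23309 with 0 others called. Software comprised limma 3.58.1 (run in R 4.3.3) for normexp, and pandas 2.3.3, numpy 2.4.6 and matplotlib 3.10.9 under Python 3.11.15. The alternatives comprised 12 choices of background, scaling, filter and probe, 2 other cutoffs, and 1 choice made after seeing the data, the subtraction of neighbouring spots. Normexp was run on the median signal. Protein sequences were not used here.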

Additional observations from a re-analysis of the deposited data

How the results depend on the processing

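Spike-in scaling shifted the genes by a median of -1.34 and gave 1 member at least 2-fold higher and 26 lower, 3 above 0, and medians of -1.12 for the members, -1.07 for upstream signalling, -1.34 for the transcription factors, -1.21 for maturation and fusion, -1.34 for the further autophagy factors and -1.01 for the further receptors. It turned the sign of 29 members, among them GABARAPL1 (-0.24) and SQSTM1 (-0.29) of those reported past 2-fold. Without scaling, when higher genes made up 42.2% of all genes past 2-fold against 63.4%, 3 members were at least 2-fold higher, and the medians, in the same order, were 0.047, 0.098, -0.18, -0.042, -0.18 and 0.083. Scaling to the median gave 0.14, 0.19, -0.085, 0.049, -0.087 and 0.17, with 54.5% higher. Normexp correction gave 0.28 for the members, 0.21 for upstream signalling, -0.057 for the transcription factors and 0.19 for the further receptors, with 825 higher and 468 lower genes in all against 1248 and 720. The second brightest probe gave 0.29 for the members, -0.27 for the transcription factors and 0.15 for the further autophagy factors, and the mean over all probes 0.29, -0.16 and 0.082. With each array required to exceed background, the transcription factors had 0.050 and the further receptors 0.33. When dim probes kept their measured value, 50.4% of all genes past 2-fold were higher, and leaving dim probes in gave 2297 genes higher and 1270 lower. A 1.5-fold cutoff gave 9 members higher and 1 lower, and a 3-fold cutoff 1 higher. Of 532 values of single members under these choices, 348 stayed within the replicate-spot SD and the others did not, and 54 had the other sign, 29 of them with spike-in scaling and 9 without scaling. Apart from shifts common to all genes and smaller gene sets, the cause of these differences was not tested. Signal over background limits the dim genes, of which MAP1LC3A has only a bound. No paired analysis was possible because each condition has only 1 array.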

Other observations

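Over all 4086 named genes with several probes well above background, the second brightest probe gave the higher log2 ratio in 54.5%, and the median difference between the second and the brightest probe was 0.031. Over the 16 members with several probes the same difference had a median of 0.28, and the median SD among their probes was 0.28.

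The promoters of the members had a median GC content of 64.8% (46 promoters of 37 genes), and all promoters in the table had 58.7%.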
